A study of Mus musculus with 6 samples.

Results

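The 10 genes described here, Acta2, Tagln, Myh11, Cnn1, Actg2, Lmod1, Des, Myl9, Tpm2 and Synpo2, encode parts of the contractile apparatus of smooth muscle and myofibroblasts. They were taken by symbol from the 31130 genes counted in each tumor. All 10 were detected in every tumor, and all 10 passed the filter on low counts that left 11240 genes for testing. The tumors came from mice of a lung cancer (LC) model and of a lung cancer with interstitial pneumonia (IP + LC) model. Every contractile gene was lower in the IP + LC tumors. The decreases ran from 1.62-fold for Actg2 to 5.13-fold for Synpo2, and their summed level was 391 ± 65.7 CPM in IP + LC tumors, beside 1278 ± 261 CPM in LC tumors (SD, n = 3 each).

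Smooth muscle shortens when myosin II pulls on actin filaments, which are anchored at dense bodies and held in a network of desmin filaments. Calcium and calmodulin activate myosin light chain kinase, and RhoA and its kinases restrain the phosphatase that reverses this step. In the lung, these genes are used by the smooth muscle of airways and vessels and, in part, by pericytes and myofibroblasts, the matrix-producing fibroblasts of fibrosis and tumor stroma that take up smooth muscle actin. Serum response factor (SRF) with its coactivators drives many of these genes through the CArG box.

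All mice had received Lewis lung carcinoma (LLC) cells in the left lung. LLC is a lung cancer line of the mouse, and the cells used here express enhanced green fluorescent protein. Per the study's methods the mice were female C57BL/6 animals of 6 to 8 weeks, and the labels give the genotype as WT. The IP + LC mice had also been given bleomycin, which causes lung injury and then fibrosis, at 2.0 mg/kg by oropharyngeal aspiration 14 days before the cells, whereas the LC mice had the cells alone. With the cells given on day 14, tumors were taken on day 21, and 3 per group were sequenced. The sequenced tumors thus come from a single cell line and a single bleomycin dose, and no lung without a tumor was analysed here. Although the labels name lung cancer cells as the cell type, the samples were pieces of tissue that also held host lung: the alveolar type 2 gene Sftpc had 4259 to 29459 CPM. Levels are given as CPM, the number of unique molecular identifiers (UMIs, 1 per captured RNA molecule) per 1000000 UMIs of the library after TMM scaling.

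The libraries held 592733 to 1631066 UMIs, and LC replicate 1 was the smallest. It stood apart from the other tumors of its group. Its correlation over log2 levels was 0.84 with LC replicate 2 and 0.80 with LC replicate 3, while these 2 tumors reached 0.962 with each other and the IP + LC tumors 0.968 to 0.973. The CV between replicates was 33.2% in the LC group, 13.7% without LC replicate 1, and 10.9% in the IP + LC group. The gene Actb, beta-actin, had 934 UMIs in LC replicate 1 and 22045 to 49105 in the others. In these libraries 3 UMIs were worth 5.09 CPM in LC replicate 1 and 1.72 to 2.44 CPM elsewhere, which sets the resolution for Lmod1 and Synpo2, the rarest of the 10 genes. Counts that changed without this tumor are therefore also given, as are named genes whose call changed when it was left out.

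The CArG box is the element bound by SRF, so it was looked for in the 250 bases before the RefSeq start site (GRCm38.p6) of the 7 contractile genes that the promoter table holds, Acta2, Cnn1, Des, Lmod1, Myl9, Synpo2 and Tpm2. The motif is 2 C bases, 6 bases that are each A or T, and 2 G bases, and it reads the same on both strands. An exact box was found in 1 of the 7, Myl9, and in 1.47% of 32851 promoters. A box with at most 1 mismatch was found in 3 of the 7, Acta2, Lmod1 and Myl9, and in 18.6% of all promoters. These sites are shown because they are where the 10 genes can share a sequence feature that their selection by name did not use. Each is printed 5′ to 3′ on the gene's strand, with 10 bases on each side and the box in capitals, and positions count back from the start site.
Acta2, -84 to -75, 1 mismatch, minus strand, chr19:34255438-34255467: gtgctgaggtCCCTATATGGttgtgttaga
Acta2, -34 to -25, 1 mismatch, minus strand, chr19:34255388-34255417: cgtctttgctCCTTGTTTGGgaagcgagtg
Lmod1, -189 to -180, 1 mismatch, plus strand, chr1:135324614-135324643: gcccccttgtCTTTAAAAGGctaaactgct
Lmod1, -164 to -155, 1 mismatch, plus strand, chr1:135324639-135324668: ctgctctgtaCTAAATTTGGtcacgcagcg
Myl9, -161 to -152, exact, plus strand, chr2:156775293-156775322: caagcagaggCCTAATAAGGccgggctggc
Myl9, -99 to -90, 1 mismatch, plus strand, chr2:156775355-156775384: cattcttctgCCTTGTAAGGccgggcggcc
The Lmod1 and Myl9 sites lie before the annotated genes, and the Acta2 sites lie inside the span of the Acta2 gene as annotated in GENCODE M21. The TEAD-binding MCAT motif, CATTCC on either strand, was found in 2 of the 7, Acta2 and Lmod1, and in 12.6% of all promoters, and it overlapped none of these boxes. The 3 genes with a box differed in how far they fell, as given below, and their changes lay within the range of the others.

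Acta2 and Actg2 encode the smooth muscle actins, alpha and gamma. Acta2 (ENSMUSG00000035783, GRCm38 chr19:34241090-34255590, minus strand) is the usual marker of smooth muscle and myofibroblasts. It had 355, 558 and 446 CPM in LC replicates 1, 2 and 3, and 123, 86.5 and 128 CPM in the IP + LC replicates. The lowest LC tumor was above the highest IP + LC tumor, and the level was 4.07-fold lower in the IP + LC group (log2 fold change -2.03, SE 0.26, edgeR adjusted p = 0.0014). Leaving out LC replicate 1 gave a log2 fold change of -2.17. Actg2 (ENSMUSG00000059430, chr6:83512905-83536265, minus strand), the actin of visceral smooth muscle, had 37.3, 53.5 and 52.1 CPM in the LC tumors and 25.7, 30.9 and 34.2 CPM in the IP + LC tumors. The groups did not overlap, although LC replicate 1 and IP + LC replicate 3 lay close together. The decrease of Actg2 was 1.62-fold, the smallest of the 10 genes (log2 fold change -0.69, SE 0.23, edgeR adjusted p = 0.050). It was also the only call that other settings removed: the adjusted p was 0.11 with library size as the only scaling, 0.18 without the filter, 0.11 by DESeq2, 0.32 in thinned libraries, and 0.10 to 0.20 without any 1 tumor other than LC replicate 1. Leaving out LC replicate 1 gave -0.81.

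Myh11 and Myl9 are the motor. Myh11 (ENSMUSG00000018830, chr16:14194535-14291372, minus strand) encodes the myosin heavy chain of differentiated smooth muscle. Its levels were 54.3, 113 and 147 CPM in the LC tumors and 30.6, 21.2 and 22.8 CPM in the IP + LC tumors. LC replicate 1 thus had less than the other LC tumors and more than every IP + LC tumor, and this spread gave Myh11 an SD of 47.1 around its LC mean of 105 CPM. The decrease was 4.36-fold (log2 fold change -2.12, SE 0.36, edgeR adjusted p = 0.0037), and the log2 fold change was -2.40 without LC replicate 1. Myl9 (ENSMUSG00000067818, chr2:156775420-156781658, plus strand) encodes the regulatory light chain whose phosphorylation starts contraction. It had 137, 182 and 176 CPM in the LC tumors and 47.0, 36.7 and 53.5 CPM in the IP + LC tumors. This was the lowest adjusted p among the 10 genes, with a 3.67-fold decrease and little spread within either group (log2 fold change -1.87, SE 0.23, edgeR adjusted p = 0.0012).

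Tagln, Cnn1, Tpm2, Lmod1 and Synpo2 bind actin filaments. Transgelin, the product of Tagln (ENSMUSG00000032085, chr9:45929619-45936058, minus strand), bundles actin and is an early smooth muscle marker. Tagln had 83.1, 102 and 66.0 CPM in the LC tumors and 29.2, 23.5 and 21.4 CPM in the IP + LC tumors, and it was the only one of the 10 genes whose lowest LC value came from LC replicate 3 rather than replicate 1. It fell 3.41-fold (log2 fold change -1.77, SE 0.24, edgeR adjusted p = 0.0016). Of its exonic bases 67.9% are shared with Pcsk7 and a predicted gene on the opposite strand, and whether the counting used strand is not given in the sources used here. Pcsk7 itself had 12 to 26 UMIs per tumor, and its change did not pass the test (log2 fold change -0.38, edgeR adjusted p = 0.32). Cnn1 (ENSMUSG00000001349, chr9:22099216-22109630, plus strand) encodes calponin 1, which restrains the actin-activated myosin ATPase. It had 89.9, 149 and 121 CPM in the LC tumors and 27.1, 22.9 and 45.6 CPM in the IP + LC tumors, so the groups were well apart although IP + LC replicate 3 was above the other tumors of its group. The fall was 3.86-fold (log2 fold change -1.95, SE 0.31, edgeR adjusted p = 0.0030).

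Tpm2 (ENSMUSG00000028464, chr4:43514711-43523765, minus strand) encodes beta-tropomyosin, which lies along the actin filament. With 83.1, 113 and 96.9 CPM in the LC tumors and 46.3, 40.7 and 59.2 CPM in the IP + LC tumors, its fitted change was closer to 0 than that of every other gene of the 10 except Actg2. The groups did not overlap, and the decrease was 2.04-fold (log2 fold change -1.03, SE 0.23, edgeR adjusted p = 0.011). Lmod1 (ENSMUSG00000048096, chr1:135324807-135368065, plus strand) encodes leiomodin 1, which nucleates actin filaments in smooth muscle. It rested on 5, 28 and 24 UMIs in the LC tumors and 5, 4 and 7 UMIs in the IP + LC tumors, or 8.5, 21.4 and 19.5 CPM against 3.6, 2.3 and 5.0 CPM. LC replicate 1 and IP + LC replicate 1 had the same number of UMIs and were set apart by depth alone. The decrease was 4.92-fold (log2 fold change -2.30, SE 0.45, edgeR adjusted p = 0.0066). Synpo2 (ENSMUSG00000050315, chr3:123076519-123236149, minus strand) encodes synaptopodin 2, an actin-bundling protein of muscle. It had 15.3, 27.5 and 29.3 CPM in the LC tumors and 3.6, 3.4 and 7.8 CPM in the IP + LC tumors, from 5 to 36 UMIs per tumor. All LC tumors exceeded all IP + LC tumors, with a 5.13-fold decrease (log2 fold change -2.36, SE 0.41, edgeR adjusted p = 0.0043).

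Des (ENSMUSG00000026208, chr1:75360329-75368579, plus strand) encodes desmin, the intermediate filament of smooth, cardiac and skeletal muscle. It had 136, 197 and 164 CPM in the LC tumors and 76.2, 48.7 and 64.9 CPM in the IP + LC tumors. The groups did not overlap, and the 2.66-fold decrease was between those of Tpm2 and Tagln (log2 fold change -1.41, SE 0.24, edgeR adjusted p = 0.0041). A predicted gene on the opposite strand covers 5.86% of the exonic bases of Des. None of the 10 genes shared a stretch of 81 or more nucleotides at 95% identity with the transcripts of another gene. Reads were kept from 20 bases after trimming, and shorter matches were not searched.

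**Figure D1:**
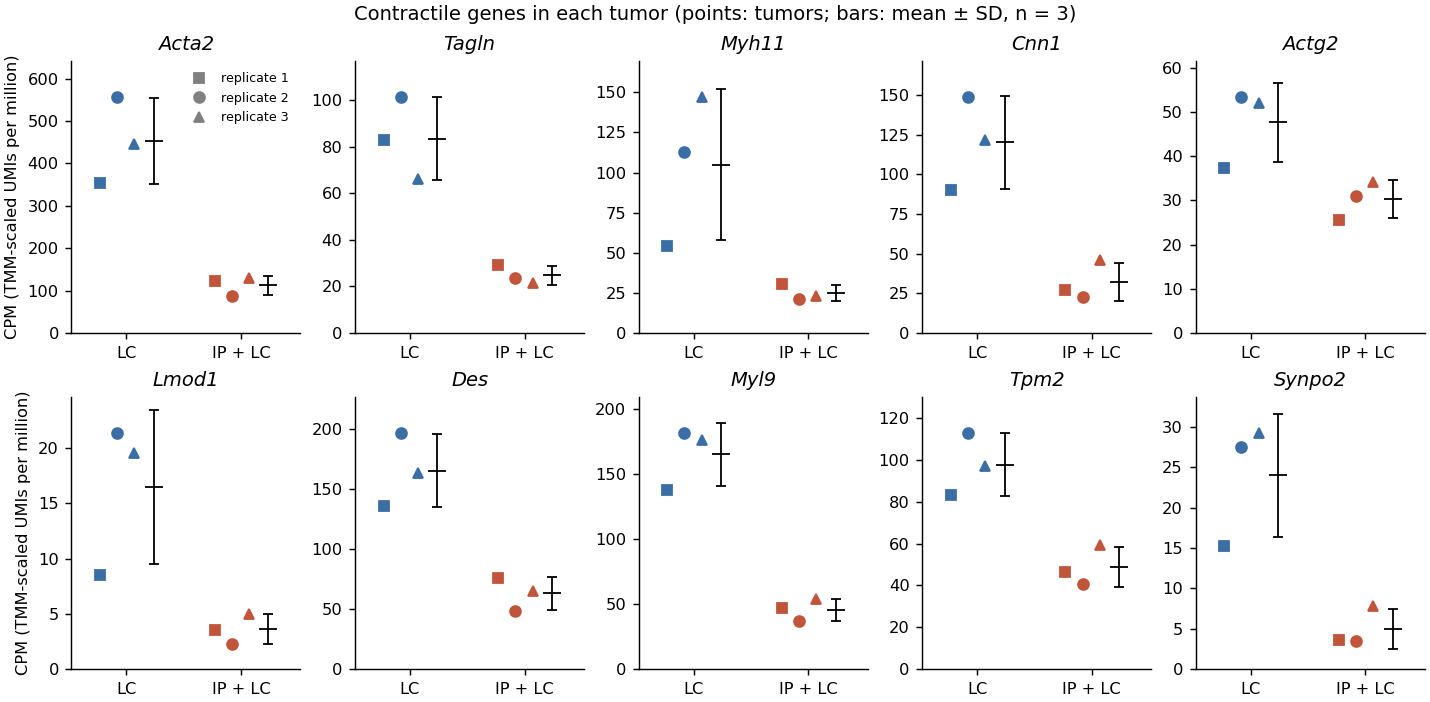
Level of each contractile gene in each tumor, in CPM on a linear axis that starts at 0, with LC tumors in blue, IP + LC tumors in red, symbols for the replicate number and bars for the mean ± SD (n = 3). In all 10 panels the 3 IP + LC tumors lie below the 3 LC tumors, most narrowly for Actg2, where the nearest values are 37.3 and 34.2 CPM.

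Counted together, 10 of the 10 genes were called lower at an adjusted p below 0.1 (edgeR quasi-likelihood test, two-sided, Benjamini-Hochberg over 11240 genes), whereas 19.6% of all tested genes were called lower and 16.8% higher. The 10 genes also had no overlap between the groups, with every IP + LC tumor below every LC tumor, as did 21.2% of all tested genes. Lmod1 and Synpo2 would not have passed the filter without their LC values, so their calls are no support for these counts, and 8 of 8 were called lower when 10 UMIs were required in every library. Their median log2 fold change was -1.91, beside 0.02 over all tested genes. Without LC replicate 1 all 10 were again called lower with a median of -2.05, and 28.7% of the genes then tested were lower and 28.3% higher. With the library size as the only scaling, 9 were called lower, and the share of all genes called lower was 16.0% and of those called higher 22.4%. In this bulk tissue, fewer cells that express the contractile genes and less RNA of these genes per cell cannot be told apart.

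**Figure D2:**
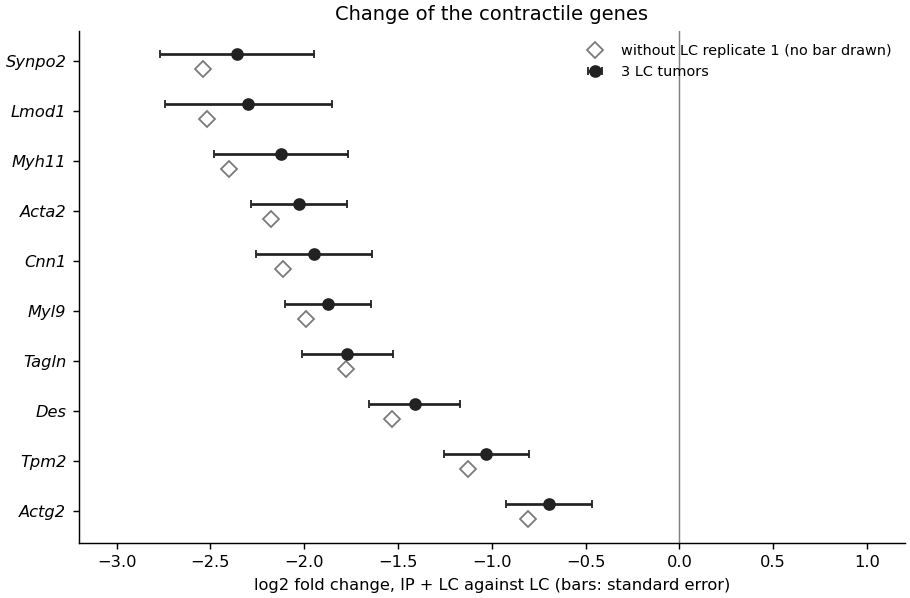
Log2 fold change of each contractile gene, IP + LC against LC, with bars for the standard error in the fit of all 6 tumors (filled) and the value without LC replicate 1 (open diamonds). All values are below 0, from -0.69 for Actg2 to -2.36 for Synpo2, and leaving out LC replicate 1 moved each of them further from 0.

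The fitted decreases of the 10 genes differed in size. To compare them, the log2 level of each gene was set against the mean log2 level of the other 9 in the same tumor, which removes what they have in common. Relative to the rest, Actg2 was -0.85, -1.03 and -0.91 in the LC tumors and -0.09, 0.53 and 0.13 in the IP + LC tumors, a difference of 1.12. Tpm2 was 0.41, 0.16 and 0.07 in the LC tumors and 0.83, 0.95 and 0.99 in the IP + LC tumors, a difference of 0.71. Both genes thus made up a larger part of the contractile transcripts in every IP + LC tumor than in any LC tumor. Acta2 went the other way, with 2.72, 2.70 and 2.51 in the LC tumors and 2.37, 2.14 and 2.22 in the IP + LC tumors, a difference of -0.40. Myl9 also moved down without overlap, by a difference of -0.22. For these 4 genes the exact permutation test, two-sided, gave p = 0.1, the smallest p that 3 against 3 tumors allow, and 0.25 after adjustment over the 10 genes. No gene could have passed the limit in this design, so the test says nothing for or against unequal decreases, and the values stand as a description. The other 6 genes overlapped between the groups, with differences from -0.51 for Synpo2 (-0.17 with a pseudocount of 4) to 0.28 for Des and permutation p from 0.2 to 0.9.

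The families of the 10 genes include paralogues that cells other than muscle use for the cytoskeleton. Of 30 paralogues listed, 21 passed the filter: 9 were lower, 5 were higher and 7 did not pass the test, and their median log2 fold change was -0.21. Over all tested genes 19.6% were lower and 16.8% higher. Synm, among the 9, would not have passed the filter without its LC values, so its call is no support for this count. With 10 UMIs required in every library, 7 of 19 paralogues were lower and 5 higher, beside 1586 and 1470 of all 7558 genes. With the library size as the only scaling the split was 6 lower and 6 higher (Myh10, Myl6 and Tmod3 were no longer called lower and Synpo was called higher), and without LC replicate 1 it was 10 lower and 9 higher of 22 tested, beside 28.7% and 28.3% of all genes. The number called was 9 without LC replicate 3, IP + LC replicate 1 or IP + LC replicate 2. The 9 that did not pass the filter, Acta1, Tagln3, Myl6b, Lmod2, Lmod3, Tmod1, Tmod4, Prph and Synpo2l, had 0 to 15 UMIs per tumor. Of these, Lmod2 passed the filter without LC replicate 1, but through the LC tumors alone (15 and 12 UMIs, against 0, 1 and 4), so its call there is not read as a change.

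Among actins, Actg1, cytoplasmic gamma-actin, rose from 26.7 to 37.3 CPM in the LC tumors to 57.0 to 61.9 CPM in the IP + LC tumors (log2 fold change 0.87, SE 0.21, edgeR adjusted p = 0.016). Actb had 1585, 19080 and 17957 CPM in the LC tumors and 26193, 28134 and 28911 CPM in the IP + LC tumors. Actb was higher in every IP + LC tumor but did not pass the test (log2 fold change 1.09, SE 0.71, edgeR adjusted p = 0.29), and without LC replicate 1 it was called higher with a log2 fold change of 0.57 (adjusted p = 0.0028). Cardiac actin, Actc1, fell from 219 to 488 CPM to 36.1 to 103 CPM, with a log2 fold change of -2.14 (adjusted p = 0.0075). The cytoplasmic and the muscle actins thus lay on opposite sides of 0, with the limits given for Actb and Actg2. By the criterion used above, 57.8% of the longest Actg1 transcript is shared with other transcripts, but none of its last 500 bases, the end that the libraries tag.

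Among myosin heavy chains, Myh9, the nonmuscle heavy chain IIA, rose in the IP + LC tumors. It had 144, 245 and 329 CPM in the LC tumors and 585, 591 and 575 CPM in the IP + LC tumors (log2 fold change 1.26, SE 0.29, edgeR adjusted p = 0.014). Myh10 and Myh14, the other nonmuscle heavy chains, fell, with log2 fold changes of -1.37 (adjusted p = 0.089) and -1.46 (adjusted p = 0.0054), and for Myh10 the groups overlapped because LC replicate 1 had only 17.0 CPM. Of the light chains, Myl12b fell (-1.02, adjusted p = 0.0087), Myl6 fell less (-0.58, adjusted p = 0.087), and Myl12a had -0.31 (adjusted p = 0.32). Myl6 is the least certain of these, since 33.6% of the last 500 bases of its longest transcript are shared with other transcripts. The nonmuscle members of this family therefore went in both directions. The log2 fold changes of Myh11 and Myl9 were below those of each of them, a difference that was not tested.

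Of the tropomyosins, Tpm3 rose (0.83, adjusted p = 0.015), Tpm4 had 0.37 (adjusted p = 0.26) and Tpm1 had -0.01 (adjusted p = 0.98), beside -1.03 for Tpm2. When LC replicate 1 was left out, Tpm4 was called higher (0.60, adjusted p = 0.0019). Among calponins and transgelins, Cnn3 rose (0.61, adjusted p = 0.051), Tagln2 had 0.26 (adjusted p = 0.43, and 0.47 with adjusted p = 0.0091 without LC replicate 1) and Cnn2 had -0.21 (adjusted p = 0.46). Cnn1 and Tagln were thus the 2 genes of this family that were called lower. Tmod3 and Tmod2, tropomodulins that cap the slow-growing end of actin filaments, fell by 0.57 and 1.54 on the log2 scale. Among intermediate filaments, Vim, vimentin, rose (0.74, adjusted p = 0.064), while Nes, nestin, fell from 56.0 to 87.2 CPM to 24.2 to 37.8 CPM. Synm, synemin, which forms filaments together with desmin, had a log2 fold change of -2.22. It had 9 to 23 UMIs in the IP + LC tumors and passed the filter only with its LC values, so its call is not read as a change. Synpo, the paralogue of Synpo2, had 0.42 (adjusted p = 0.17), and 0.47 (adjusted p = 0.085) without LC replicate 1. With the library size as the only scaling the median over all genes shifted up by 0.16 on the log2 scale, and Tpm1 then had 0.15; no called paralogue changed direction.

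**Figure D3:**
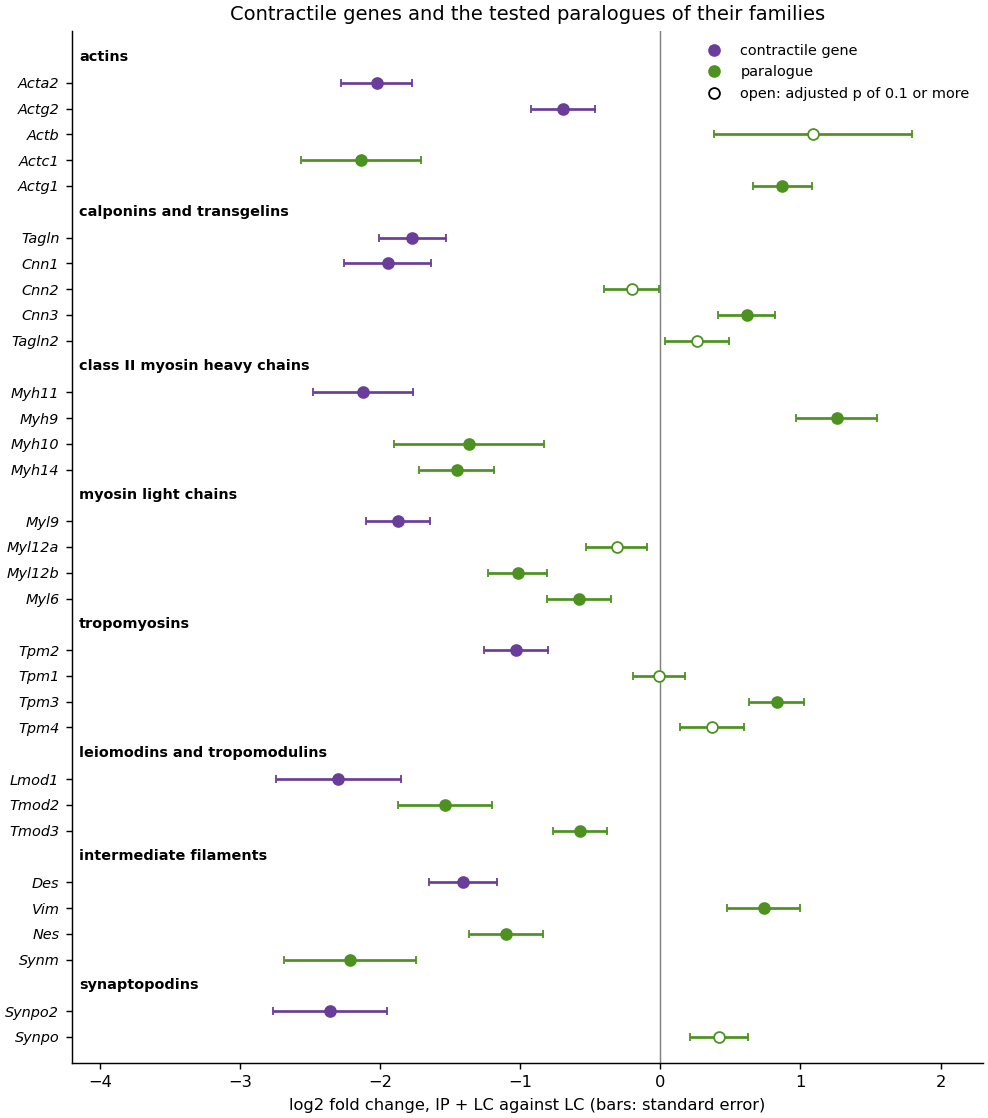
Log2 fold change with standard error of the 10 contractile genes (purple) and the 21 tested paralogues (green), by family, with open symbols where the adjusted p was 0.1 or more. The purple points lie between -2.36 and -0.69, whereas the green points run from -2.22 for Synm to 1.26 for Myh9.

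A ratio of UMIs within a tumor needs no scaling between libraries. Each contractile gene was set against the most abundant tested paralogue of its family, and since this choice was made after the values were seen the ratios are given as a description. Per 100 UMIs of Myh9, Myh11 had 37.6, 46.1 and 44.8 UMIs in the LC tumors and 5.24, 3.59 and 3.97 in the IP + LC tumors. This ratio was nearly the same in the 3 LC tumors, LC replicate 1 included. Per 100 UMIs of Tpm1, Tpm2 had 17.1, 19.7 and 18.1 UMIs in the LC tumors and 8.72, 7.22 and 11.7 in the IP + LC tumors. Per 100 UMIs of Vim, Des had 6.28, 13.8 and 13.7 UMIs in the LC tumors and 2.70, 1.81 and 2.56 in the IP + LC tumors, so LC replicate 1 was closer to the IP + LC group. Per 100 UMIs of Synpo, Synpo2 had 52.9, 116 and 109 UMIs in the LC tumors and 9.80, 10.5 and 21.2 in the IP + LC tumors. In all 10 pairs every IP + LC tumor was below every LC tumor. The ratios also carry the change of the paralogue. Myh9 and Vim were called higher in the IP + LC tumors (log2 fold changes 1.26 and 0.74), and Myl6 and Tmod3 lower (-0.58 and -0.57). The ratios to Actb are the exception in spread, since for Acta2 they were 22.4 in LC replicate 1 and 2.92 and 2.48 in the other LC tumors, against 0.31 to 0.47 in the IP + LC tumors.

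**Figure D4:**
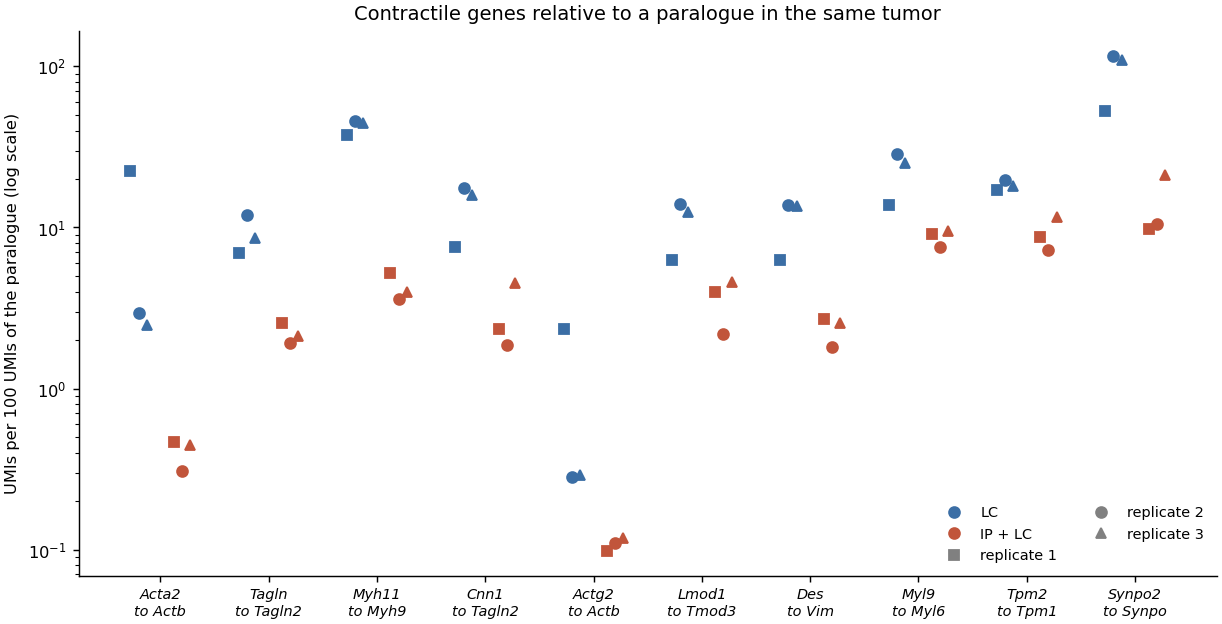
UMIs of each contractile gene per 100 UMIs of a paralogue in the same tumor, on a log axis, with LC tumors in blue, IP + LC tumors in red and symbols for the replicate number. In each pair the IP + LC tumors lie below the LC tumors, for example at 3.59 to 5.24 against 37.6 to 46.1 UMIs of Myh11 per 100 of Myh9, and LC replicate 1 stands far above for both ratios to Actb.

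Beyond these families, 70 other genes of the contractile pathway were listed, of which 62 were tested. Of these, 30 were lower, 5 were higher and 27 did not pass the test, with a median log2 fold change of -0.82, beside 19.6% lower and 16.8% higher over all tested genes. Pdlim3, Pgm5, Hspb7, Cacna1c, Kcnmb1, Agtr1a and Meox2 would not have passed the filter without their LC values. The same holds for Vcl and its IP + LC values, so these calls are no support for the counts. With 10 UMIs required in every library, 22 of 46 tested genes were lower and 5 higher, beside 1586 and 1470 of all 7558. The number called was 53 of 65 without LC replicate 1 (40 lower and 13 higher, beside 28.7% and 28.3% of all genes), 21 without LC replicate 2 and 22 without IP + LC replicate 2, so it rests in part on single tumors. The lists were the structural partners of the apparatus, its control by calcium, nitric oxide and RhoA, and its transcriptional regulators.

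Of 30 structural partners, all tested, 15 were lower, 5 were higher and 10 did not pass, with a median of -0.72. Pdlim3, Pgm5 and Hspb7 are among the 15, with the limit given above. Over all tested genes 19.6% were lower and 16.8% higher, and the 5 of 30 called higher are close to the latter share. Without LC replicate 1 the split was 17 lower and 7 higher, beside 28.7% and 28.3% of all genes. Ppp1r14a, the smooth muscle inhibitor of myosin phosphatase known as CPI-17, had 115, 134 and 125 CPM in the LC tumors and 14.3 to 20.7 CPM in the IP + LC tumors. Its log2 fold change was below that of each of the 10 contractile genes, and LC replicate 1 was like the other LC tumors (log2 fold change -2.79, SE 0.23, edgeR adjusted p = 0.00052). Itga8, the integrin alpha 8 subunit of smooth muscle and mesenchymal cells, fell from 59.4 to 138 CPM to 18.9 to 26.4 CPM (log2 fold change -2.29, adjusted p = 0.0020). Csrp1, an actin-associated LIM protein, fell by 0.59 (adjusted p = 0.050). The 5 called higher were Cald1, Actn1, Flna, Vcl and Zyx. Cald1, caldesmon, an actin-binding protein with smooth muscle and nonmuscle forms, had 180, 273 and 288 CPM in the LC tumors and 459, 529 and 444 CPM in the IP + LC tumors (log2 fold change 0.93, adjusted p = 0.019). Flna, filamin A, rose by 0.66 (adjusted p = 0.065). Actn1, alpha-actinin 1, rose by 1.21 and Zyx, zyxin, by 0.57, and Vcl, vinculin, had 1.54, all on the log2 scale. Vcl had 0, 17 and 17 UMIs in the LC tumors and passed the filter only with its IP + LC values, so its call is not read as a change.

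In the control of contraction, 8 of 16 tested genes were lower, 0 were higher and 8 did not pass, with a median of -1.21 (22 were listed). Cacna1c, Kcnmb1 and Agtr1a would not have passed the filter without their LC values, so their calls are no support for this count. Without LC replicate 1 the split was 15 lower and 1 higher of 19 tested, with a median of -1.56, and the 3 genes added, Pln, Ryr2 and Casq2, entered that fit through their higher LC values. The shares over all genes were 19.6% lower and 16.8% higher with all tumors, and 28.7% and 28.3% without LC replicate 1. Among the 16 tested in all 6 tumors, the largest change was that of Ednrb, an endothelin receptor of smooth muscle and endothelium, from 49.2, 149 and 151 CPM to 19.2, 13.8 and 15.7 CPM (log2 fold change -2.89, SE 0.41, edgeR adjusted p = 0.0020). Kcnmb1, the smooth muscle subunit of the large-conductance potassium channel, had -2.21 (adjusted p = 0.0037) but rested on 4 to 21 UMIs per tumor. It passed the filter through the LC tumors alone, so its call is not read as a change. The nitric oxide receptor subunits Gucy1a1 (-2.15) and Gucy1b1 (-2.07) and Pde5a (-2.10), which degrades cyclic GMP, fell without overlap between the groups. Of the most abundant genes of the list, Rhoa had -0.08 (adjusted p = 0.88), Rock1 0.23 (adjusted p = 0.76) and Atp2a2, the calcium pump of the sarcoplasmic reticulum, -0.27 (adjusted p = 0.39). Without LC replicate 1 Rhoa (-0.39, adjusted p = 0.019) and Atp2a2 (-0.35, adjusted p = 0.092) were called lower, and Rock1 had -0.19 (adjusted p = 0.32).

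Among the regulators, 7 of 16 tested genes were lower, 0 were higher and 9 did not pass, with a median of -0.78 (18 were listed). Over all tested genes 19.6% were lower and 16.8% higher. Meox2, among the 7, would not have passed the filter without its LC values. Srf, the factor of the CArG box, did not pass the test. It had 27.2, 15.3 and 17.9 CPM in the LC tumors and 19.2, 31.5 and 32.8 CPM in the IP + LC tumors, with overlap (log2 fold change 0.53, SE 0.31, edgeR adjusted p = 0.24), and its coactivator Mrtfa had 0.47 (adjusted p = 0.30). Without LC replicate 1 both were called higher, with log2 fold changes of 0.74 and 0.75, as were Tead2, Tead4 and Prrx1, so that 8 of the 16 were lower and 5 higher. Over all genes 28.7% were then lower and 28.3% higher, and the share of the regulators called higher is close to the latter. Mrtfb, the other coactivator of this pair, fell by 0.90 (adjusted p = 0.066), and Myocd, the muscle-restricted coactivator myocardin, had 0 to 6 UMIs per tumor and was not testable at this depth. The genes with the largest decreases were regulators of lung mesenchyme, Foxf1 (-2.36, adjusted p = 0.0049) and Tcf21 (-2.28, adjusted p = 0.0016). Klf4, which can repress smooth muscle genes, fell as well, with 37.3, 180 and 191 CPM in the LC tumors and 42.0, 36.1 and 66.3 CPM in the IP + LC tumors (log2 fold change -1.55, adjusted p = 0.049), and the groups overlapped through LC replicate 1. Tead1 had 0.16 (adjusted p = 0.71).

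Lists of other cell types moved along with the contractile genes, and their part in the decrease was not tested. Over all tested genes 19.6% were called lower and 16.8% higher, and without LC replicate 1 the shares were 28.7% and 28.3%. Of 9 tested pericyte markers 6 were lower and 0 higher (median -1.16), with a summed level of 336 to 402 CPM in the LC tumors and 131 to 155 CPM in the IP + LC tumors. They included Mcam (-1.15), Pdgfrb (-0.99), Cox4i2 (-2.86) and Ndufa4l2 (-2.15), while Rgs5, Cspg4 and Notch3 did not pass (Notch3 was called lower without LC replicate 1). Cox4i2, Ndufa4l2, Higd1b and Kcnj8 would not have passed the filter without their LC values. Their calls are therefore no support for the pericyte count. Heart muscle extends along the pulmonary veins in mice and also uses desmin. All 11 tested cardiac markers were lower (median -2.78), among them Myl7 (-2.79), Myl4 (-2.78), Actc1 (-2.14), Sln (-3.51) and Myoz2 (-3.42), and their sum was 1213 to 2525 CPM against 198 to 474 CPM. Sln, Myoz2, Csrp3 and Tnnc1 would not have passed the filter without their LC values, so their calls are no support for the cardiac count. Without LC replicate 1 all 12 tested were lower, with Mybpc3 added through its LC values alone. Skeletal muscle was barely present, with 44.1 to 59.5 CPM against 14.9 to 24.2 CPM in sum and 0 UMIs of Myh2 in every tumor, and of its 2 tested markers, Ckm and Myl1, both were lower, whereas Tnnt3 was not tested. Neither Ckm nor Myl1 would have passed the filter without its LC values, so this count is no support for a decrease. Without LC replicate 1 all 3 tested were lower, with Tnnt3 added through the LC tumors alone (17 and 12 UMIs, against 4, 3 and 3).

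Fibroblast lists went in opposite directions, while over all tested genes 19.6% were called lower and 16.8% higher. Of 12 resting lung fibroblast markers 11 were lower and 0 higher (median -2.10), such as Inmt (-3.54), Gsn (-2.08), Ces1d (-2.43), Fmo2 (-2.56) and Tcf21 (-2.28), with sums of 5449 to 8805 CPM against 1316 to 1823 CPM. Pi16 and Scara5, also called lower, would not have passed the filter without their LC values, so their calls are no support for this count. Of 11 tested markers of activated fibroblasts and myofibroblasts 7 were higher and 1 was lower (median 1.06), with sums of 1252 to 1716 CPM against 2614 to 2791 CPM. Fibronectin, Fn1, rose from 180 to 443 CPM to 565 to 673 CPM (log2 fold change 1.06, adjusted p = 0.034). Col1a2 rose by 0.67, Grem1, a BMP antagonist, by 2.56 and Sfrp1, a WNT inhibitor, by 2.42, and Col3a1 had 0.59 (adjusted p = 0.11). In the LC tumors Grem1 had 3 to 5 UMIs and Tnc, also called higher, 3 to 13. Neither would have passed the filter without its IP + LC values, so their calls are no support for the activated fibroblast count. Col3a1 was called higher as well without LC replicate 1 (0.86, adjusted p = 0.00021). The only gene of this list that fell was Postn, periostin, by 1.64 on the log2 scale. Lrrc15, a marker of cancer-associated myofibroblasts, had 0 UMIs in every LC tumor and 0 to 3 in the IP + LC tumors. Apart from Postn and from Ltbp2 and Col12a1, which had log2 fold changes of -0.02 and -0.06, the tested genes of this list lay on the other side of 0 from the 10 contractile genes. Acta2 fell while Fn1 and Col1a2 rose, in the same 6 tumors.

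Markers of host lung without contractile genes also fell. The shares over all tested genes were 19.6% lower and 16.8% higher, and 28.7% and 28.3% without LC replicate 1. All 12 endothelial markers were lower (median -1.77), with sums of 2218 to 3866 CPM against 655 to 868 CPM, for example Cldn5 (-2.26), Calcrl (-2.46), Ramp2 (-2.73) and Tek (-2.60). All 11 airway epithelial markers were lower (median -2.55), led in level by Scgb1a1 (-3.22), Scgb3a2 (-3.34) and Cyp2f2 (-3.07) and in change by Scgb3a1 (-3.64) and Bpifa1 (-3.53). Of 12 alveolar markers 9 were lower and 0 higher (median -1.83), including Sftpc (-2.11), Sftpa1 (-2.54), Sftpb (-1.94) and Hopx (-2.28). All 5 tested mesothelial markers were lower (median -2.09), among them Krt19 (-1.59), Msln (-0.92), Upk3b (-2.69) and Upk1b (-2.30). Upk3b and Lrrn4 would not have passed the filter without their LC values, so their calls are no support for the mesothelial count. The median of the contractile genes, -1.91, was thus within the range of the host lung lists. Of 10 proliferation genes 8 were higher and 0 lower (median 1.75, and 2.95 without LC replicate 1), with sums of 145 to 731 CPM against 1234 to 1369 CPM. Bub1, Aurkb and Plk1 would not have passed the filter without their IP + LC values, so their calls are no support for the proliferation count. Top2a rose by 2.96 and Cenpf by 3.10, and Cdk1 had 1.25 (adjusted p = 0.22), with 166 CPM in LC replicate 1 and 17.1 and 21.4 CPM in the other LC tumors. Leaving out LC replicate 1, all 10 proliferation genes and all 12 alveolar markers were called, in the same directions, as were 7 of the 9 pericyte markers.

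**Figure D5:**
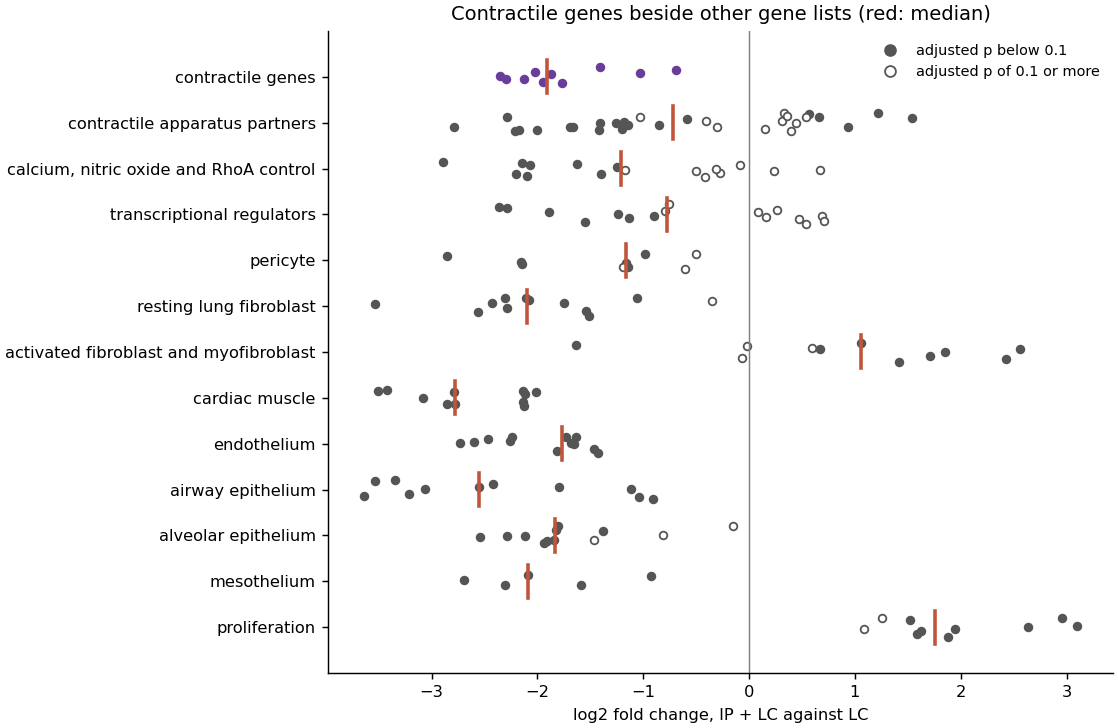
Log2 fold change of every tested gene of the contractile genes and 12 other lists, with a red line for the median of each list and open symbols where the adjusted p was 0.1 or more; points are spread vertically for legibility only. The contractile genes, with a median of -1.91, lie beside the resting fibroblast, endothelial, alveolar and mesothelial lists (medians from -2.10 to -1.77), and the activated fibroblast list lies at 1.06.

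The genes outside the 10 whose levels over the 6 tumors were most like the mean of the contractile genes were Lhfp, Gpr182, Ripply3, mt-Co1, Aldh1a7 and Dmkn. Pearson's r over log2 levels was 0.9994 for Lhfp and 0.9975 for Dmkn, with the other 4 in between. These values describe 6 tumors in 2 groups and so carry mostly the difference between the groups, and the tumors differ in depth. The size of the change differed among them. Lhfp went from 137, 171 and 160 CPM to 86.9, 79.6 and 93.4 CPM (log2 fold change -0.87), mt-Co1, a mitochondrial subunit of cytochrome c oxidase, had -0.88, and Ripply3 had -2.81. The mean of the 10 genes, centred over the tumors on the log2 scale, was 0.42, 1.09 and 0.94 in the LC tumors and -0.79, -1.08 and -0.59 in the IP + LC tumors, so LC replicate 1 was the lowest LC tumor and IP + LC replicate 3 the highest of its group.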

How the data were processed

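Tumor RNA (3 LC and 3 IP + LC samples) was sequenced by bulk RNA barcoding, which tags the 3′ end of polyadenylated transcripts with a barcode of the sample and a UMI of 10 bases. Per the study's methods and the submitters' processing notes, the authors used UMI-tools 1.1.1 for the UMIs, Trim Galore 0.6.7 for trimming, HISAT2 2.2.1 for alignment (GRCm38) and featureCounts 2.0.1 for the assignment of reads to genes. The deposited values are raw counts of unique UMIs per gene, so counting error is that of molecules. The annotation release and the use of strand are not given in the sources used here, and no separate culture or batch is named.

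Samples were grouped by their titles. The labels do not say that each sample is a separate animal beyond its number, so p-values measure the spread between these samples. Tests were run in R 4.3.3 with edgeR 4.0.16 (quasi-likelihood, TMM factors 0.905 to 1.07, filterByExpr with a minimum count of 10 and total of 15, no block), two-sided, adjusted by Benjamini-Hochberg over 11240 genes with a limit of 0.1, as the study's methods give. The relative levels used log2(CPM + 1) and exact permutation tests over tumors. The 10 genes and all lists were chosen with earlier results of these data known. The text names every contractile gene and paralogue and, of each other list, the 3 genes of highest mean level and the 2 called genes of largest change, plus the 6 genes most like the contractile mean; further genes were named after their values were seen. Annotation came from GENCODE M21 (GRCm38), promoters from RefSeq and transcript matches from blastn 2.17.0+. Alternatives were other scalings, filters, pseudocounts and limits, DESeq2 1.42.0, limma voom 3.58.1, a replicate block, libraries thinned to 592733 UMIs, and each tumor left out. The procedure was tested on simulated data.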

Additional observations from a re-analysis of the deposited data

How the results depend on the processing

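Over 16 alternatives the 10 contractile genes gave 156 log2 fold changes. All 156 were below 0, and 147 passed the limit; the other 9 were all of Actg2. The number of contractile genes called was 7 to 10, with 8 genes testable when 10 UMIs were required in every library (8 called) and when libraries were thinned (7 called). The paralogues called numbered 9 at an adjusted p below 0.05, beside 14 at 0.1, and 9 to 19 when 1 tumor was left out. The pathway genes called numbered 23 in thinned libraries, beside 35, and 21 to 53 when 1 tumor was left out, the highest in both cases without LC replicate 1. Over all genes, 2203 were called lower and 1885 higher, with 1338 and 1014 in thinned libraries, 1800 and 2520 with library size only, 3053 and 3180 with voom quality weights, 3367 and 3324 without LC replicate 1, 1569 and 1016 without LC replicate 2, 1572 and 1088 without IP + LC replicate 1, and 1368 and 897 without IP + LC replicate 2. For the relative level of Lmod1, a pseudocount of 4 turned the difference from -0.26 to 0.12, that of Synpo2 from -0.51 to -0.17 and that of Acta2 from -0.40 to -0.53, and no other relative level changed sign. Deviations of same-numbered tumors correlated at 0.03, -0.12 and 0.11, and those of differently numbered tumors at -0.14 to 0.13. With 3 tumors per group the deviations sum to 0, so these values cannot decide whether the numbers pair the samples. A replicate block gave 10 contractile genes, 11 paralogues and 28 pathway genes called. Lmod1 and Synpo2 had 4 to 36 UMIs per tumor, and Myocd and 9 paralogues were too rare to test. The causes of these shifts were not tested.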
